A study of Schmidtea mediterranea with 24 samples.

Results

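Late-decline transcripts were defined as contigs whose abundance in control RNAi fragments was about the same 2 days after amputation as at 0 h and was at least 2-fold lower by 4 days. Abundance was taken as CPM, the count of a contig scaled to the same total in every library. A member needed a control mean of at least 5 CPM at 0 h, a 2 day mean within 1.5-fold of it, and a 4 day mean of no more than 1/2 of it. Only 3 of the 28069 contig IDs met this rule, dd_Smed_v6_2394_0_1, dd_Smed_v6_2329_0_1 and dd_Smed_v6_2786_0_1. The members were chosen by their mean CPM in the control libraries alone, so control values of the members over time are given without a test, and the egr-2 RNAi libraries serve as the measurement that the rule did not use.

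The animals were Schmidtea mediterranea planarians of the asexual clonal line CIW4, fed 6 times with double-stranded RNA and starved for 7 days before amputation. The double-stranded RNA targeted egfp, a jellyfish reporter gene that served as the control, or egr-2. RNA came from the anterior part of tail fragments, the end next to the amputation wound, at 0 h, 2 days or 4 days. Each of the 6 groups had 4 biological replicates, and each replicate pooled 10 fragments. Tail fragments regrow a head and trunk from the anterior wound. Neoblasts, the dividing adult stem cells of planarians, form the new tissue there while the older tissue of the fragment is remodelled. The protein encoded by egr-2 belongs to the early growth response family, zinc finger transcription factors that are induced rapidly by stimuli in many animals.

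Libraries held 13449251 to 30829850 counts. The tables give contig IDs with no gene name, function or sequence, so no role can be given for the members, the contig of egr-2 was not identified, and neither the knockdown nor the tissue could be checked against a known transcript. In RNA from whole tissue, fewer cells that hold a transcript and less of it per cell cannot be told apart. Of 9996 more abundant IDs compared, 37 were at least 4-fold lower in egr-2 RNAi replicate 1 at 0 h than in the mean of its group mates. These included 0 of the 3 members, which at so small a share says little about the members.

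In control fragments a 2-fold fall by 4 days was rare among IDs whose 2 day mean stayed within 1.5-fold of 0 h. Of the 11601 IDs with at least 5 CPM at 0 h, 8510 (73.4%) stayed within 1.5-fold at 2 days, and the 3 members were 0.0353% of these. The median ratio of the 4 day to the 0 h mean among the 8510 was 1.15. A ratio of 1/1.5 or less was found for 92 of them and a ratio of 1.5 or more for 660. At 2-fold the corresponding numbers were 3 lower and 91 higher. The balance depended on the scaling. With levels scaled by TMM factors, which correct totals for the composition of the libraries, 273 of 9467 such IDs had a ratio of 1/1.5 or less and 329 a ratio of 1.5 or more, around a median of 1.01. At 2-fold 15 were lower and 70 higher on that scale.

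**Figure D1:**
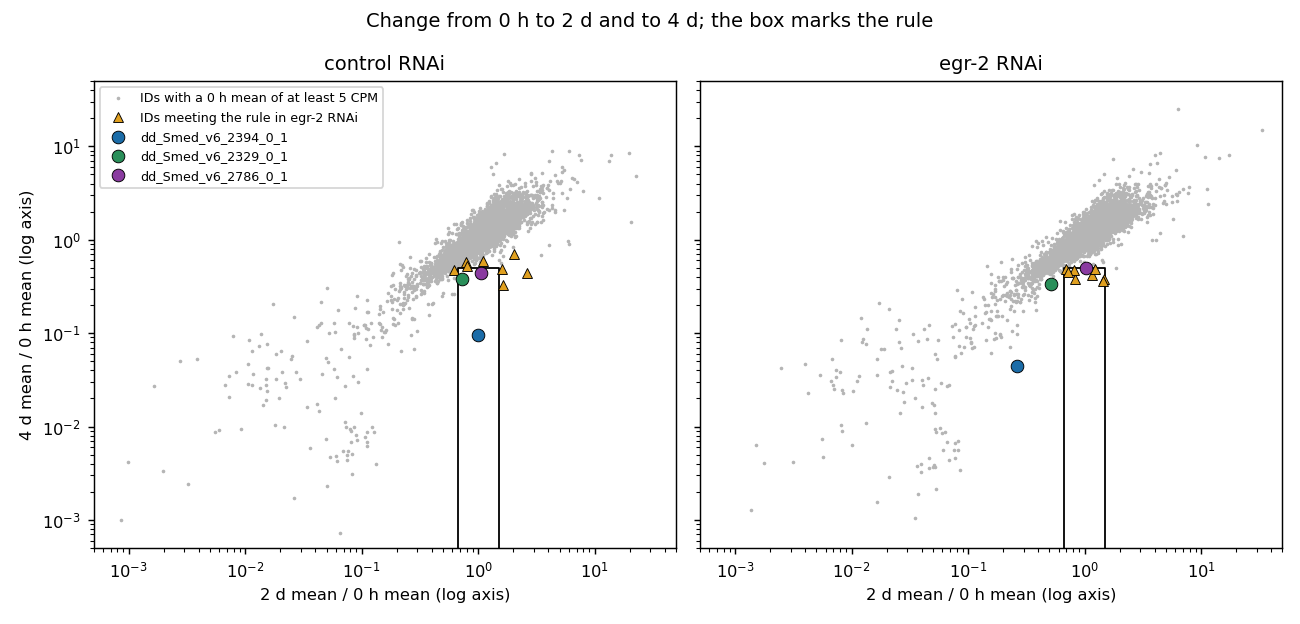
Ratio of the 2 day to the 0 h group mean (horizontal) and of the 4 day to the 0 h group mean (vertical), both on log axes, for IDs with a 0 h mean of at least 5 CPM in control RNAi (left) and egr-2 RNAi fragments (right), with 1 ID in each panel outside the axes. The open box is the rule. It holds the 3 members on the left and none of them on the right, where it holds 8 other IDs (triangles).

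The member with the deepest decline was dd_Smed_v6_2394_0_1, a contig of 1771 bases. In control fragments at 0 h its 4 libraries stood at 3.88, 5.50, 17.2 and 23.1 CPM, with a mean of 12.4 ± 9.26 CPM (SD, n = 4). At 2 days they stood at 11.4, 11.4, 13.1 and 13.8 CPM, and at 4 days at 0.891, 0.927, 1.30 and 1.63 CPM. The 2 day values lay in the gap between a low and a high pair of 0 h libraries, while the 4 day values were below every earlier control library. The mean was therefore level to 2 days (a 2 day to 0 h ratio of 1.00) and 10.5-fold lower at 4 days, but the 0 h libraries differed among themselves with a coefficient of variation of 74.6%, against 9.91% at 2 days. With control replicate 4 at 0 h left out, the 2 day mean was 1.40 times the 0 h mean, and with control replicate 3 left out it was 0.815 times the 0 h mean, both still inside the 1.5-fold band. The low pair at 0 h was control replicates 1 and 3, and the high pair was replicates 2 and 4. For dd_Smed_v6_2329_0_1 the same replicates were lower (16.2 and 13.9 CPM) and higher (19.6 and 21.0 CPM) at 0 h. For dd_Smed_v6_2786_0_1 they were not, with replicate 2 lowest at 208 CPM.

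Under egr-2 RNAi dd_Smed_v6_2394_0_1 had no level phase. Its libraries stood at 39.4, 55.9, 65.9 and 94.9 CPM at 0 h, at 15.7, 16.1, 16.1 and 19.2 CPM at 2 days, and at 2.06, 2.47, 2.76 and 4.09 CPM at 4 days. No library of a later group reached the lowest of an earlier one. From 0 h to 2 days dd_Smed_v6_2394_0_1 fell by 2.22 on the log2 scale (SE 0.29, adjusted p of 2.3e-07 by edgeR's quasi-likelihood test over 19761 IDs), and from 2 to 4 days it fell by a further 2.61 (SE 0.37, adjusted p of 3.5e-06). This second step ranked as number 36 among the fitted falls from 2 to 4 days, counted from the largest. Counts behind the 4 day values were low, at 22 to 48 reads per control library and 61 to 114 per egr-2 RNAi library.

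The most abundant member was dd_Smed_v6_2786_0_1, of 1305 bases, at 171 CPM per kilobase of contig in control fragments at 0 h, where dd_Smed_v6_2329_0_1 had 23.3 and dd_Smed_v6_2394_0_1 had 7.01. In egr-2 RNAi fragments at 0 h these per-length levels were 218, 37.1 and 36.1, and the libraries of the latter pair, at 33.4 to 42.2 and 22.2 to 53.6 CPM per kilobase, overlapped. Control libraries of dd_Smed_v6_2786_0_1 stood at 208, 213, 223 and 250 CPM at 0 h and at 212, 222, 250 and 264 CPM at 2 days, ranges that overlapped almost fully. At 4 days they stood at 79.1, 90.1, 110 and 113 CPM, below all 8 earlier libraries. Among the members, dd_Smed_v6_2786_0_1 was the one in which the late timing was closest between the RNAi conditions.

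In egr-2 RNAi fragments dd_Smed_v6_2786_0_1 had 253, 269, 302 and 313 CPM at 0 h, 267, 285, 298 and 320 CPM at 2 days, and 133, 145, 147 and 147 CPM at 4 days. The 0 h and 2 day libraries overlapped and the 4 day libraries lay below both. It fell between 2 and 4 days by 1.08 on the log2 scale (SE 0.09, adjusted p of 3.6e-10, edgeR). Between 0 h and 2 days the fitted change was -0.25 (SE 0.09, adjusted p of 0.020), a call that depended on the scaling. With libraries scaled by total counts alone the change was 0.04, with an adjusted p of 0.73, and that scaling moved the median of all tested IDs in this comparison from 0.022 to 0.311. Without egr-2 RNAi replicate 3 or 4 at 0 h, or replicate 2 or 3 at 2 days, the adjusted p was 0.052 to 0.073.

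The third member, dd_Smed_v6_2329_0_1, of 759 bases, sat nearest to the lower edge of the 2 day band. Control libraries had 13.9, 16.2, 19.6 and 21.0 CPM at 0 h, 12, 12.2, 12.3 and 15.1 CPM at 2 days, and 5.73, 6.20, 6.65 and 8.04 CPM at 4 days. Its 0 h and 2 day libraries overlapped through 1 library on each side, and the mean at 2 days was 0.730 of that at 0 h. Read per step, the control means of dd_Smed_v6_2329_0_1 were lower at each later time, so its fall was not confined to the late interval.

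Its egr-2 RNAi libraries had 25.3, 26.7, 28.4 and 32.1 CPM at 0 h, 11.9, 15.3, 15.5 and 15.9 CPM at 2 days, and 8.64, 8.69, 9.93 and 10.1 CPM at 4 days, with no overlap between any of the 3 times. It fell by 1.23 on the log2 scale from 0 h to 2 days (SE 0.12, adjusted p of 4.4e-10, edgeR) and by 0.69 from 2 to 4 days (SE 0.12, adjusted p of 9.2e-05). For dd_Smed_v6_2329_0_1 the first step was thus the larger one under egr-2 RNAi.

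**Figure D2:**
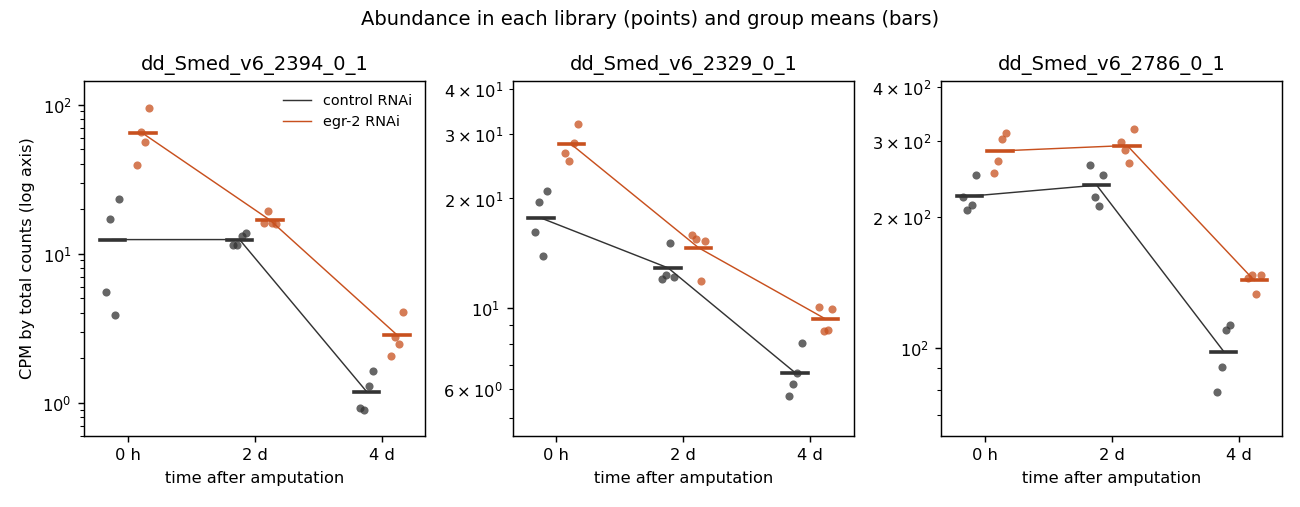
CPM by total counts on a log axis at 0 h, 2 days and 4 days for each member (panels), with 1 point per library, bars at the group means and lines joining them, in control RNAi (black) and egr-2 RNAi fragments (orange). The 4 egr-2 RNAi libraries of dd_Smed_v6_2394_0_1 at 0 h, at 39.4 to 94.9 CPM, lie above all control libraries, and its 4 day control libraries lie at 0.891 to 1.63 CPM.

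All 3 members therefore fell between 2 and 4 days in the egr-2 RNAi libraries, where 14.4% of all tested IDs were called lower, and the median log2 change was -1.08 over the members and 0.004 over all tested IDs. In each member every egr-2 RNAi library at 4 days was below every one at 2 days, which was the case for 11.9% of tested IDs, and every one was below every one at 0 h, the case for 9.4%. From 0 h to 4 days all 3 fell as well, against a background of 24.9%, with log2 changes of -4.83 for dd_Smed_v6_2394_0_1 (SE 0.35, adjusted p of 1.7e-12), -1.93 for dd_Smed_v6_2329_0_1 (SE 0.12, adjusted p of 4.5e-14) and -1.32 for dd_Smed_v6_2786_0_1 (SE 0.09, adjusted p of 4.0e-13, all edgeR). These 6 calls were kept in each of the 31 alternative fits. From 0 h to 2 days all 3 were called lower too, against 24.6% of tested IDs, and 2 of them had no overlap between the times, against 10.6%. In this step the call of dd_Smed_v6_2786_0_1 was kept in only 26 of the 31 fits and was lost with total counts alone. Overlap was judged on CPM by total counts, while the calls used TMM factors.

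The members divided in how the fall was spread over the 2 intervals. The part of the log2 change from 0 h to 4 days that lay between 2 and 4 days was computed from the CPM means. For dd_Smed_v6_2394_0_1 it was the whole change in control and 56.9% in egr-2 RNAi fragments. For dd_Smed_v6_2329_0_1 it was 67.8% and 40.7%, and for dd_Smed_v6_2786_0_1 it was 107% and 104%, values above 100 standing for a small rise before the fall. With means scaled by TMM factors the same parts were 93.4% and 54.0%, 58.6% and 36.1%, and 89.6% and 81.3%. The control values follow in part from the rule, which holds the 2 day mean within 1.5-fold of the 0 h mean.

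The difference between the RNAi conditions in the early step is the RNAi effect at 2 days minus that at 0 h, and in the late step the effect at 4 days minus that at 2 days. Both contain control changes that the rule bounded when it chose the members, within 1.5-fold at 2 days and at least 2-fold lower at 4 days. Their values and calls are therefore a description and no independent test. The early difference was -1.94 for dd_Smed_v6_2394_0_1 (SE 0.43, adjusted p of 0.056, edgeR), -0.54 for dd_Smed_v6_2329_0_1 (SE 0.17, adjusted p of 0.27) and -0.10 for dd_Smed_v6_2786_0_1 (SE 0.13, adjusted p of 0.88). None was called, where 0.182% of tested IDs were called in either direction, while 2 of the 3 had an unadjusted p below 0.05 and DESeq2 called 0. The value for dd_Smed_v6_2394_0_1 did pass in 5 of 31 alternative fits, among them the fit with no filter on low counts (-1.95, adjusted p of 0.029) and those without control replicate 4 at 0 h (-2.44, adjusted p of 0.0098), without control replicate 2 at 0 h (-2.13, 0.041) and without egr-2 RNAi replicate 1 at 0 h (-2.10, 0.011). Over the 31 fits its adjusted p ran from 0.0098 to 0.24. For the late step, the RNAi effect at 4 days minus that at 2 days, edgeR and DESeq2 called 0 of the 3 members, where 0.0911% of tested IDs were called by edgeR, and 0 had an unadjusted p below 0.05. Its fitted values were 0.80 (SE 0.61), 0.29 (SE 0.18) and 0.22 (SE 0.13) for dd_Smed_v6_2394_0_1, dd_Smed_v6_2329_0_1 and dd_Smed_v6_2786_0_1.

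At 0 h, directly after amputation, each member was more abundant under egr-2 RNAi, and its egr-2 RNAi libraries were all above its control libraries, which 3.52% of tested IDs showed. The difference was widest for dd_Smed_v6_2394_0_1, with 64.0 ± 23.3 against 12.4 ± 9.26 CPM (SD, n = 4). Its fitted log2 change was 2.38 (SE 0.30, edgeR's adjusted p 2.1e-05) and ranked as number 6 of the 19761 tested IDs from the highest. For dd_Smed_v6_2329_0_1 the means were 28.1 ± 2.91 and 17.7 ± 3.22 CPM (SD, n = 4), with a fitted log2 change of 0.73 (SE 0.11, adjusted p 2.8e-04). For dd_Smed_v6_2786_0_1 they were 284 ± 28.3 and 223 ± 19.1 CPM (SD, n = 4), with a fitted log2 change of 0.41 (SE 0.09, adjusted p 0.0059). Of all tested IDs, 4.25% were called in this direction. The control libraries of this comparison also chose the members, so the calls here and at the later times are a description and no independent support.

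At 2 days the conditions were closest. Means under egr-2 RNAi and control were 16.8 ± 1.65 and 12.4 ± 1.23 CPM for dd_Smed_v6_2394_0_1, 14.6 ± 1.85 and 12.9 ± 1.49 CPM for dd_Smed_v6_2329_0_1, and 292 ± 22.0 and 237 ± 24.3 CPM for dd_Smed_v6_2786_0_1 (SD, n = 4). The libraries of dd_Smed_v6_2329_0_1 overlapped. For the other two every egr-2 RNAi library was above every control library, as for 2.89% of tested IDs. By edgeR's quasi-likelihood test 0 of the 3 was called, where 0.364% of tested IDs were called in either direction, and 1 had an unadjusted p below 0.05, while DESeq2 also called 0. Fitted to the 2 day libraries alone, dd_Smed_v6_2394_0_1 (0.44, adjusted p of 0.019) and dd_Smed_v6_2786_0_1 (0.31, adjusted p of 0.015) were called.

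At 4 days egr-2 RNAi libraries again lay above all control libraries for each member, as they did for 4.86% of tested IDs. The means were 2.85 ± 0.875 against 1.19 ± 0.347 CPM for dd_Smed_v6_2394_0_1, 9.34 ± 0.787 against 6.66 ± 0.995 CPM for dd_Smed_v6_2329_0_1 and 143 ± 6.79 against 98.1 ± 16.3 CPM for dd_Smed_v6_2786_0_1 (SD, n = 4). The fitted log2 change of dd_Smed_v6_2786_0_1 was 0.54 (SE 0.09, edgeR's adjusted p 5.7e-04) and was called in each of 31 alternative fits. That of dd_Smed_v6_2329_0_1 was 0.48 (SE 0.13, adjusted p of 0.041). Its call was lost, at an adjusted p of 0.051 to 0.15, without control replicate 1, 2 or 3 at 4 days and without any 1 of the 4 egr-2 RNAi libraries at 4 days. The value of dd_Smed_v6_2394_0_1, 1.24 (SE 0.52, adjusted p of 0.30), was not called, except in the fit of the 4 day libraries alone (adjusted p of 0.0035). Calls of higher abundance at 4 days were 1.7% of tested IDs. In the authors' deposited table, the false discovery rate of dd_Smed_v6_2394_0_1 at 4 days was 0.020, and it was higher under egr-2 RNAi.

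**Figure D3:**
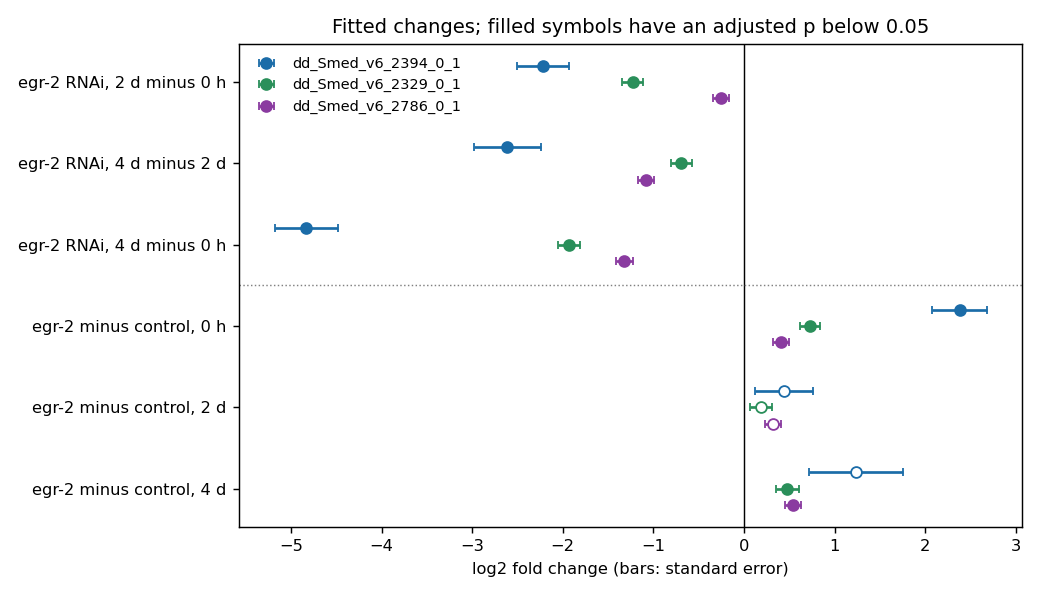
Fitted log2 fold changes with standard errors for the 3 members (colours) in the time comparisons within egr-2 RNAi fragments (above the dotted line) and in egr-2 RNAi minus control at each time (below it); filled symbols have an adjusted p below 0.05. The time comparisons are all below 0, from -0.25 to -4.83, and the RNAi comparisons are all above 0, from 0.19 to 2.38, with open symbols for all members at 2 days.

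When the same rule was applied to the egr-2 RNAi columns, 8 IDs met it, 0.0696% of the 11495 with at least 5 CPM at 0 h there, and 0 of the 3 members were among them. Of these 11495, 7979 stayed within 1.5-fold at 2 days. In control fragments the 3 members came from 11601 and 8510 such IDs, and the 0.0353% given above was of the 8510. Under egr-2 RNAi dd_Smed_v6_2394_0_1 and dd_Smed_v6_2329_0_1 missed the 2 day band, with 2 day to 0 h ratios of 0.262 and 0.520. By contrast dd_Smed_v6_2786_0_1 stayed in the band at 1.03 and missed only the 4 day bound, with a 4 day to 0 h ratio of 0.504. Leaving out egr-2 RNAi replicate 1 or 2 at 0 h, or replicate 2 or 4 at 4 days, brought it to 0.486 to 0.499 and inside the rule.

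The 8 IDs had 0 h means of 9.19 to 35.0 CPM and 4 day to 0 h ratios of 0.359 to 0.488 under egr-2 RNAi. In control fragments 4 of them missed only the 2 day band, 3 missed only the 4 day bound and 1 missed both, and none missed the level minimum. Their control ratios ran from 0.621 to 2.62 at 2 days and from 0.328 to 0.702 at 4 days. They were short contigs, with a median of 558 bases and a range of 412 to 1353, while the median of the tested IDs was 1182 bases and the members measured 759, 1305 and 1771.

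**Figure D4:**
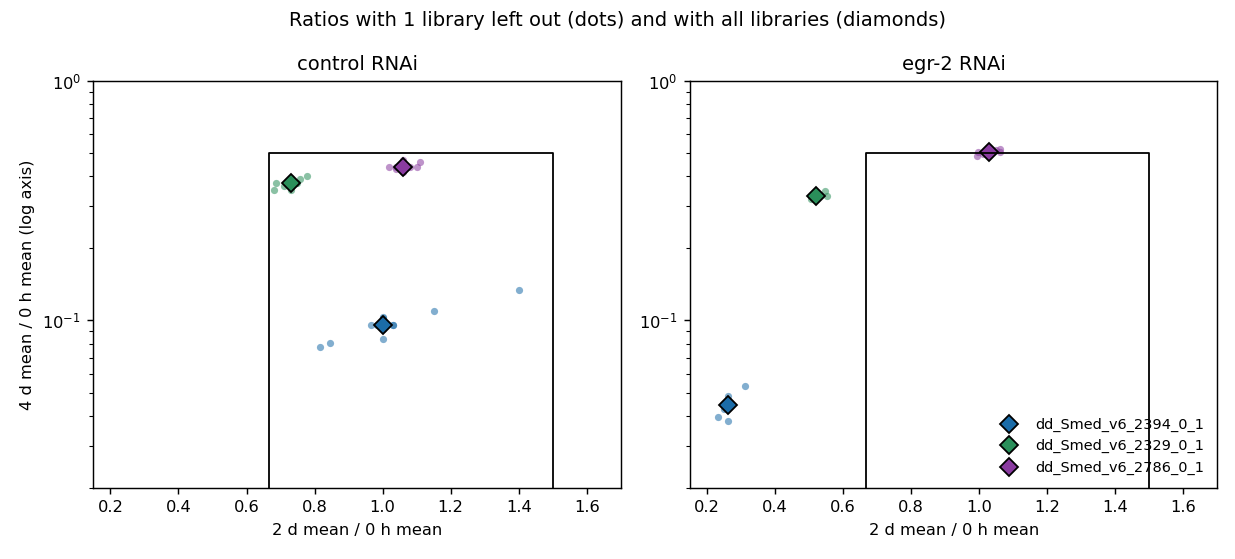
Ratios of the 2 day to the 0 h mean (horizontal) and of the 4 day to the 0 h mean (vertical, log axis) of the 3 members with all libraries (diamonds) and with each library of that RNAi condition left out in turn (dots). In control RNAi every dot stays inside the box of the rule, with dd_Smed_v6_2394_0_1 spread from 0.815 to 1.40 at 2 days, and in egr-2 RNAi only dd_Smed_v6_2786_0_1 touches the box, at 0.486 to 0.522.

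Just outside the lower 2 day edge lay dd_Smed_v6_663_0_1, with control means of 74.3, 49.3 and 34.7 CPM at 0 h, 2 days and 4 days and a 2 day ratio of 0.663, beside 0.730 for dd_Smed_v6_2329_0_1 just inside. Past the upper 2 day edge lay dd_Smed_v6_7272_0_1, at 14.7, 23.5 and 7.10 CPM with a 2 day ratio of 1.6, beside 1.06 for dd_Smed_v6_2786_0_1. Above the 4 day bound lay dd_Smed_v6_12413_0_1, at 14.0, 10.6 and 7.12 CPM with a 4 day ratio of 0.507, beside 0.439 for dd_Smed_v6_2786_0_1. Below the level minimum lay dd_Smed_v6_30278_0_1, at 2.75 CPM at 0 h, where the lowest member had 12.4 CPM. Among these neighbours dd_Smed_v6_7272_0_1 was 1 of the 8 IDs that met the rule in the egr-2 RNAi columns.

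The scale of the rule decided which contigs belonged. TMM factors averaged below 1 at 0 h and above 1 later, so 0 h levels were higher and later levels lower on that scale. With TMM-normalised CPM in the rule, 15 IDs were members, among them dd_Smed_v6_2394_0_1 and dd_Smed_v6_2786_0_1 but not dd_Smed_v6_2329_0_1, whose 2 day ratio became 0.618. In the egr-2 RNAi libraries, 14 of these 15 were called lower from 0 h to 4 days and 12 from 2 to 4 days. Of all tested IDs, 24.9% and 14.4% were called lower in these comparisons. The median log2 change from 2 to 4 days was -0.82 over the 15 and 0.004 over all tested IDs. The egr-2 RNAi columns gave 16 of the 28069 IDs on the TMM scale, and 5 were shared, which is 5 of the 15 and 5 of the 16. The shared IDs included dd_Smed_v6_2786_0_1.

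Contigs with the most similar profile were sought among 15790 IDs with at least 1 CPM on average, as the smallest root mean square difference between log2 group means over the 6 groups after each ID's own mean was removed. They were chosen after their values were seen. For dd_Smed_v6_2329_0_1 the nearest was dd_Smed_v6_14661_0_1, at a difference of 0.106, with TMM-normalised control means of 4.57, 2.32 and 0.977 CPM over the 3 times. For dd_Smed_v6_2786_0_1 it was dd_Smed_v6_19750_0_1, at 0.128, with control means of 2.33, 2.07 and 0.604 CPM, below the level minimum of the rule. No contig came comparably near to dd_Smed_v6_2394_0_1, whose nearest, dd_Smed_v6_19_0_1, differed by 0.571. Its 0 h means were 1108 CPM under egr-2 RNAi and 428 CPM in control fragments, but the libraries overlapped, at 606 to 1816 and 45.6 to 1071 CPM, and the RNAi effect was not called (1.37, SE 0.52, edgeR's adjusted p 0.12). It was called in 1 of 31 alternative fits, that without control replicate 4 at 0 h (adjusted p 0.0065). Control means of dd_Smed_v6_19_0_1 were already down to 101 CPM at 2 days. The second nearest, dd_Smed_v6_58_0_1, differed by 0.632. Its 0 h libraries did not overlap, at 308 to 632 under egr-2 RNAi and 40.4 to 234 CPM in control fragments. Its RNAi effect at 0 h was called (1.64, SE 0.34, edgeR's adjusted p 0.0046), also in 30 of 31 alternative fits. In both contigs control replicates 1 and 3 at 0 h were below replicates 2 and 4, as for dd_Smed_v6_2394_0_1.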

How the data were processed

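RNA sequencing libraries were made from about 500 ng of total RNA with a NEBNext Ultra kit and read as pairs of 150 bases, per the labels. The authors deposited raw read counts per contig of the dd_Smed_v6 transcriptome and a table of their own comparisons with log2 fold changes, mean abundance as log2 CPM, and adjusted p-values, per the file headers. The submitters' processing notes name FastQC 0.11.5, Bowtie2 2.3.1, featureCounts and Subread 1.6.3. The use of strand is not given in the sources used here. Contig length in bases is a column of the deposited count table. All 24 columns matched 1 sample label each, and 0 columns were unmatched.

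Replicates differed by more than counting noise in all 36 pairs (chi-square per degree of freedom 2.53 to 25.9). The rule used CPM by column total. Tests were run in R 4.3.3 with limma 3.58.1 and edgeR 4.0.16, using TMM factors, a group-means model over 24 libraries, filterByExpr (minimum count 10, minimum total 15, 19761 IDs) and Benjamini-Hochberg adjustment at 0.05. All 3 members passed this filter, and they also passed it in the 12 egr-2 RNAi libraries alone. Standard errors were derived from the F statistic. The fit was tested on simulated data. Alternatives were RLE factors, total counts alone, other filters, DESeq2 1.42.0, fits of the compared libraries only, the replicate number as a block, each library left out, and other bounds, scale or centre of the rule. The main fit did not pair libraries by replicate number. Named IDs were the members, the IDs nearest to each bound, and IDs said to be chosen later. Members, lists and tests were chosen with earlier results of these data known.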

Additional observations from a re-analysis of the deposited data

Results flagged for a closer look

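In 18 sets of 4 replicate CPM values, 6 for each member, 4 libraries stood far apart from the rest of their group. By chance about 1 set in 20 would hold one. Control replicate 3 at 2 days stood at 15.1 CPM for dd_Smed_v6_2329_0_1, above mates at 12 to 12.3 CPM. Replicate 3 of egr-2 RNAi at 2 days stood at 11.9 CPM for the same contig, below mates at 15.3 to 15.9 CPM. For dd_Smed_v6_2394_0_1, egr-2 RNAi replicate 2 at 2 days stood at 19.2 CPM, above mates at 15.7 to 16.1 CPM. For dd_Smed_v6_2786_0_1, egr-2 RNAi replicate 3 at 4 days stood at 133 CPM, below mates at 145 to 147 CPM. Each involved a different library, and the wide spread of dd_Smed_v6_2394_0_1 in control fragments at 0 h was not among them, since its libraries lay in a low and a high pair.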

How the results depend on the processing

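The membership moved most. The rule gave 3 IDs, 15 with TMM-normalised CPM, 6 with group medians, 1 with a 4 day bound of C0/3, and 3 to 8 with 1 library left out. All 3 members stayed members without any 1 of the 24 libraries. Without control replicates 1 to 4 at 0 h there were 5, 6, 5 and 8, without replicates 1 and 3 at 2 days 5 and 5, and without replicates 2 and 3 at 4 days 5 and 6. Members that also met the rule in the egr-2 RNAi columns numbered 0, and 5 with TMM-normalised CPM, 1 with medians and 0 to 1 with a library left out. With TMM-normalised CPM, medians and the C0/3 bound, members called lower under egr-2 RNAi numbered 14, 6 and 1 from 0 h to 4 days and 12, 5 and 1 from 2 to 4 days, and those called in either direction from 0 h to 2 days numbered 12, 6 and 1. The 12 were 10 lower and 2 higher. Of all tested IDs, 24.9% were called lower from 0 h to 4 days, 14.4% from 2 to 4 days and 24.6% from 0 h to 2 days. With a library left out the counts of called members were 3 to 8, 3 to 7 and 2 to 8.

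Members called in the RNAi effect at 0 h were 3, with 6 on the TMM scale, 1 with the C0/3 bound and 3 to 5 with a library left out. At 2 days they were 0, with 2 in the fit of the compared libraries, 1 on the TMM scale, 1 with medians and 0 to 1 with a library left out. At 4 days they were 2, with 6 on the TMM scale, 1 with a tighter 2 day band, 0 with the C0/3 bound and 1 to 5 with a library left out. The difference between the effects at 4 and 2 days had 0 called members, and 0 to 0 with a library left out. A larger membership raises such counts by construction. The RNAi effect was called higher for 4.25% of all tested IDs at 0 h and 1.7% at 4 days. At 2 days 0.364% were called in either direction. Of 837 refits of single members, 817 kept the direction and stayed either called or uncalled, 11 lost a call and 8 gained one. The remaining 1 changed sign and also lost its call, that of dd_Smed_v6_2786_0_1 from 0 h to 2 days at 0.04 with total counts alone.

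Deviations of same-numbered libraries from the group means correlated at more than 0.1 in at most 1 of 4 pairs in each pairing of groups. The best match of a library in another group carried its own number in 0 to 3 of 4 cases, depending on the pairing. Whether the number marks a shared origin was not tested. With the replicate number as a block the members lower from 2 to 4 days under egr-2 RNAi were still 3, and the difference between the effects at 2 days and 0 h for dd_Smed_v6_2394_0_1 was called (-2.01, adjusted p of 0.010). Depth limits dd_Smed_v6_2394_0_1 at 4 days, where control libraries held 22 to 48 reads of it.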
